A study of Homo sapiens with 12 samples.

Results

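The genes described here are 33 genes of glucose use, listed by symbol: 2 glucose transporters, the enzymes of glycolysis, the lactate and pyruvate steps at its end, and 6 enzymes of the pentose phosphate pathway. They were followed in RNA-seq of K562 cells as 33 of the 58735 genes of the count table, and all 33 were among the 20821 genes with enough counts to test. K562, an established human erythroleukemia line, depends on the fusion kinase BCR-ABL1, which nilotinib inhibits, and can be pushed toward erythroid cells by hemin. The 4 groups of 3 biological replicates were mock DMSO (vehicle, no hemin), mock nilotinib (0.1 µM nilotinib, no hemin), hemin DMSO (vehicle and 50 µM hemin) and hemin nilotinib (0.1 µM nilotinib and 50 µM hemin). Nilotinib or DMSO was given for 24 h before hemin by the study's methods, and hemin exposure lasted 24 h. The labels themselves do not give the hours of nilotinib in the mock cells. By the study's methods the mock cells were collected as hemin was added, so hemin, time in culture and, with the inhibitor, hours of nilotinib cannot be told apart where hemin and mock groups are compared. All libraries come from 1 cell line and are bulk RNA, in which fewer cells with a transcript and less of it per cell cannot be told apart.

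Glycolysis splits glucose into pyruvate and yields ATP without oxygen. Lactate dehydrogenase then turns pyruvate into lactate, whereas pyruvate dehydrogenase, held back by its kinases, passes it to the citrate cycle. The pentose phosphate pathway branches off at glucose 6-phosphate and supplies NADPH and ribose. Mature red cells have no mitochondria and live on glycolysis, and they use the pyruvate kinase made from PKLR in place of the PKM form common in growing and leukemic cells. HK2, LDHA, PKM and the glucose transporter genes are well-known targets of MYC and of the hypoxia-inducible factors in tumor cells. Below, red cell forms are named as background for SLC2A1, HK1, PKLR and BPGM, which rose with nilotinib in hemin-treated cells. The triose steps, also part of red cell glycolysis, fell there. A shift toward the red cell pattern was not tested.

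Libraries held 33457078 to 50506990 counts, and the 33 genes took 1.03 to 1.13% of them in mock DMSO, 0.727 to 0.836% in mock nilotinib, 0.902 to 1.18% in hemin DMSO and 0.846 to 0.937% in hemin nilotinib. The K562 markers HBG1, HBG2, HBE1, GATA1, TAL1 and LMO2 each averaged above 1 CPM (a gene's counts relative to the scaled library total), with a summed level of 602 to 3730 CPM. Summed markers of T cells (0.0575 to 13.4 CPM), B cells (1.52 to 15.6), monocytes (2.18 to 45.6) and fibroblasts (8.8 to 33.4) were far lower, whereas the epithelial markers EPCAM, KRT8 and KRT19 were all detected, at a summed 218 to 926 CPM. Their part in the results was not tested. Hemin DMSO replicate 2 held more of most of these transcripts than the other libraries of its group, and its effect is given where it decides a call.

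Under nilotinib most of these genes were lower, SLC2A3, HK2 and PKM fell to a small fraction of their DMSO level, and SLC2A1 and PKLR rose several-fold. In hemin-treated cells, nilotinib lowered 20 of the 33 genes and raised 11, at an adjusted p under 0.05 in edgeR's quasi-likelihood test. The share of all tested genes called lower was 31.8% and called higher 32.4%. The median log2 fold change of the 33 genes was -0.80, against 0.02 over all genes tested. Without hemin, nilotinib lowered 17 and raised 4, where 21.8% of all genes were lower and 20.7% higher, and the median was -0.695 against 0.004. All 17 lower genes were also lower with hemin, where they were 85% of the lower genes, and the 4 higher genes were 36.4% of the genes higher with hemin. No gene was called in opposite directions in the 2 comparisons, which share no library but come from the same fit, with shared spread and scaling. This overlap was not counted over all genes tested. Libraries of nilotinib and DMSO did not overlap for 30 of the 33 genes with hemin (63.5% of all genes) and for 25 without (61.0%).

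**Figure D1:**
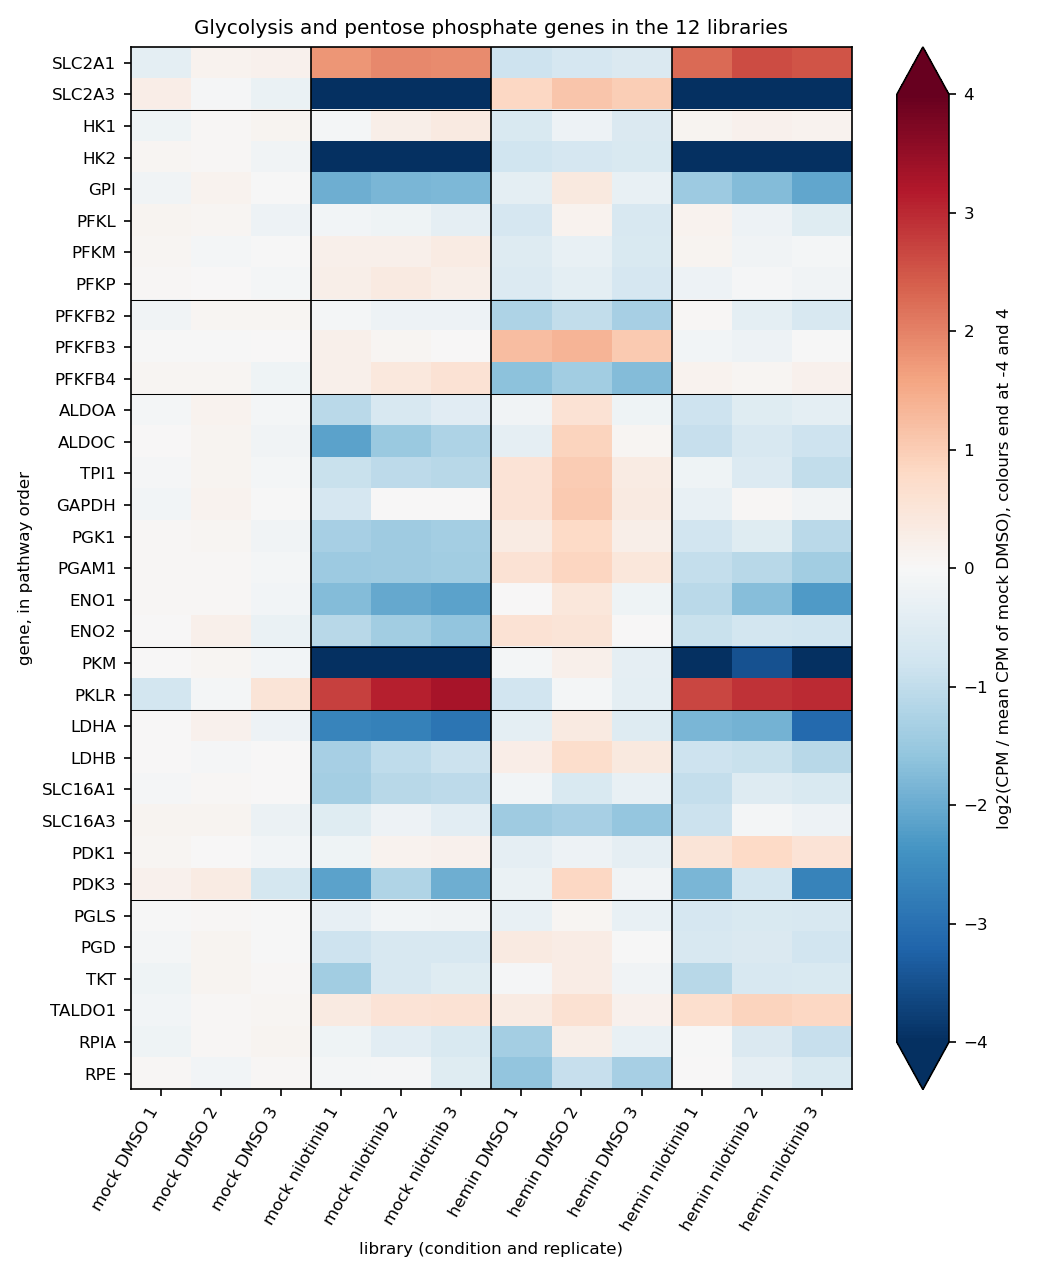
Level of each of the 33 genes (rows, in pathway order) in each of the 12 libraries (columns), as log2 of its CPM over the mean CPM of mock DMSO, with colours ending at -4 and 4. SLC2A3, HK2 and PKM are dark blue in all 6 nilotinib libraries, SLC2A1 and PKLR are red, and the triose genes from ALDOA to ENO2 are mostly pale to mid blue.

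Of the glucose transporters, SLC2A1 rose and SLC2A3 fell with nilotinib. SLC2A1 (chr1:42925375-42959176, minus strand, GRCh38) encodes GLUT1, the transporter of erythroid cells. Its level was 242, 345 and 355 CPM in the 3 mock DMSO libraries, 1060, 1196 and 1153 in mock nilotinib, 176, 198 and 212 in hemin DMSO and 1502, 1913 and 1787 in hemin nilotinib. Every nilotinib library lay above every DMSO library, and hemin nilotinib was highest. Nilotinib raised SLC2A1 8.87-fold with hemin (log2 fold change 3.15 ± 0.17 SE, adjusted p = 5.86e-10, edgeR) and 3.62-fold without (1.86 ± 0.17, adjusted p = 2.61e-07), where n = 3 libraries a group in this and every other comparison. SLC2A3 (chr12:7919230-7936275, minus strand) encodes GLUT3, a transporter with high affinity for glucose. It was at 155, 127 and 108 CPM in mock DMSO, 229, 278 and 258 in hemin DMSO, 3.09, 2.39 and 2.02 in mock nilotinib and 2.76, 3.62 and 5.14 in hemin nilotinib. SLC2A3 thus fell in every nilotinib library to a small fraction of its DMSO level, by 6.04 ± 0.24 on the log2 scale with hemin (adjusted p = 3.23e-11) and by 5.69 ± 0.24 without (adjusted p = 1.69e-10). Per length, as the deposited FPKM (fragments per kilobase of gene and scaled library size), SLC2A3 made up 24.6 ± 7.39% (SD) of the summed SLC2A1 and SLC2A3 level in mock DMSO, 50 ± 1.79% in hemin DMSO, 0.17 ± 0.0471% in mock nilotinib and 0.169 ± 0.0447% in hemin nilotinib. The sum of both rose with nilotinib, from 86.5 ± 10.1 to 238 ± 15.6 FPKM without hemin and from 83.4 ± 7.01 to 360 ± 43.8 with it. Of the 150-base words of SLC2A3, 1.1% also occur in SLC2A14, a close copy, which itself went from 2.48 to 8.3 CPM across the DMSO libraries to 0 to 0.346 CPM across those with nilotinib.

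At the hexose steps, the largest changes were falls of HK2 and GPI. Hexokinases trap glucose in the cell by phosphorylation, and HK1 is the form of red cells while HK2 is the inducible form of tumors and muscle. HK2 (chr2:74833981-74893359, plus strand) was at 64.2, 62.5 and 55.6 CPM in mock DMSO, 34.9, 38.2 and 40.2 in hemin DMSO, 1.24, 0.758 and 1.53 in mock nilotinib and 1.41, 2.75 and 1.85 in hemin nilotinib. The DMSO and nilotinib libraries were far apart, and HK2 fell by 4.24 ± 0.23 (log2) with hemin and by 5.68 ± 0.25 without (adjusted p = 5.45e-10 and 2.26e-10, edgeR). HK1, at group means of 891, 1008, 649.9 and 981 CPM in the order mock DMSO, mock nilotinib, then hemin DMSO and last hemin nilotinib, rose with nilotinib in the presence of hemin (0.59 ± 0.15, adjusted p = 0.00323), and without hemin its log2 change was 0.18 (95% interval -0.15 to 0.51). HK1 made up 93.3 ± 1.05% of the summed HK1 and HK2 FPKM in mock DMSO, and the sum was 159 ± 24.1 FPKM in mock nilotinib against 150 ± 14.1 in mock DMSO, and 153 ± 5.81 in hemin nilotinib against 110 ± 17.2 in hemin DMSO.

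Glucose 6-phosphate is then isomerized by GPI, which had 366, 440 and 397 CPM in mock DMSO, 104, 112 and 116 in mock nilotinib, 308, 526 and 326 in hemin DMSO and 145, 121 and 94 in hemin nilotinib. All nilotinib libraries were below all DMSO libraries, by 1.69 ± 0.20 (log2) with hemin (adjusted p = 1.82e-06) and 1.86 ± 0.20 without (adjusted p = 1.59e-06). The next enzyme, phosphofructokinase, commits the sugar to glycolysis and is built from liver (PFKL), muscle (PFKM) and platelet (PFKP) type subunits. These 3 genes, at group means of 50.8 CPM (PFKM, hemin DMSO) to 218 CPM (PFKL, mock DMSO), changed less. PFKM and PFKP rose with nilotinib in hemin-treated cells, by 0.43 ± 0.12 and 0.40 ± 0.12 (log2, adjusted p = 0.00669 and 0.00655). Without hemin, PFKP was called higher only in alternative settings, among them leaving out hemin DMSO replicate 2 (0.27). PFKL changed by 0.16 with hemin (95% interval -0.27 to 0.59) and -0.20 without (-0.63 to 0.23), neither past the test. With hemin DMSO replicate 2 left out, the change of PFKL with hemin became 0.48 (adjusted p = 0.024).

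The PFKFB genes, which encode the bifunctional enzymes that make and remove fructose 2,6-bisphosphate, the activator of phosphofructokinase, stood apart mainly in the hemin DMSO group. PFKFB3 (chr10:6144934-6254644, plus strand), a form in which the kinase activity prevails, was at 25.8, 26 and 26.8 CPM in mock DMSO, 30.1, 27.5 and 26.6 in mock nilotinib, 61, 66.6 and 54.4 in hemin DMSO and 24.2, 22.8 and 25.9 in hemin nilotinib. The hemin DMSO libraries stood above all others, and the other groups lay within a few CPM of each other. Hemin raised it 2.32-fold in DMSO (log2 1.21 ± 0.12, adjusted p = 1e-06), and nilotinib lowered it in hemin-treated cells by 1.32 ± 0.12 (adjusted p = 1.85e-07), whereas without hemin its change under nilotinib was 0.098 (95% interval -0.16 to 0.36). PFKFB4 (chr3:48517684-48562015, minus strand) had the opposite profile, with 59.6, 59.4 and 50.2 CPM in mock DMSO, 64.8, 75.4 and 83.6 in mock nilotinib, 18.2, 21.6 and 16.9 in hemin DMSO and 62.1, 59.1 and 63.2 in hemin nilotinib. Its hemin DMSO libraries stood below all others. Hemin in DMSO lowered PFKFB4 by 1.58 ± 0.14 (log2, adjusted p = 1.94e-07), and nilotinib raised it by 1.70 ± 0.14 with hemin (adjusted p = 3.64e-08) and by 0.40 ± 0.13 without (adjusted p = 0.0228). The last of these calls was lost without mock DMSO replicate 1 or 3 or mock nilotinib replicate 2 or 3, where the change was 0.285 to 0.399. PFKFB2 shared the direction of PFKFB4, with 73, 84.7 and 84.8 CPM in mock DMSO, 77.1, 69.5 and 70.3 in mock nilotinib, 34.3, 41.2 and 31.9 in hemin DMSO and 82.8, 61 and 52 in hemin nilotinib. It was lowest in hemin DMSO, changed by -1.18 ± 0.16 with hemin in DMSO (adjusted p = 1.66e-05) and rose by 0.87 ± 0.16 with nilotinib in hemin-treated cells (adjusted p = 0.000184). PFKFB3 made up 20 ± 0.919% of the summed FPKM of the 3 genes in mock DMSO and 60.1 ± 1.09% in hemin DMSO, against 19.2 ± 1.94% in mock nilotinib and 19.5 ± 1.84% in hemin nilotinib. PFKFB4 went the other way, from 43 ± 3.48% to 18.7 ± 0.444% with hemin in DMSO, and stood at 51 ± 4.59% and 49.4 ± 3.49% in the nilotinib groups.

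**Figure D2:**
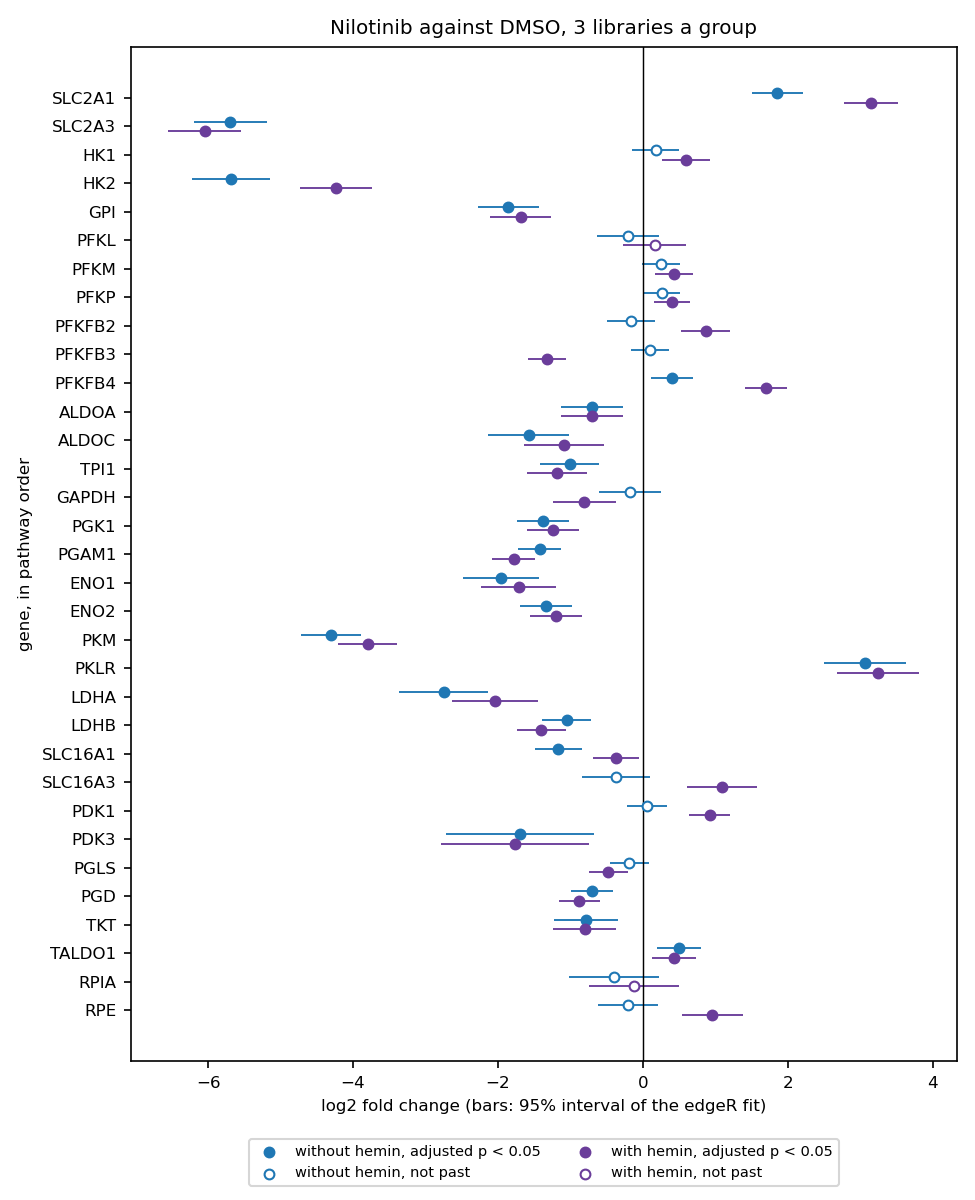
Log2 fold change of nilotinib against DMSO for the 33 genes in pathway order, without hemin (blue) and with hemin (purple), 3 libraries a group, with 95% intervals of the edgeR fit; filled points passed adjusted p under 0.05. SLC2A3, HK2 and PKM lie near -4 to -6 in both, SLC2A1 and PKLR lie to the right of 0, and PFKFB3, PFKFB4, PFKFB2, SLC16A3, PDK1 and RPE are apart from 0 mainly with hemin.

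The triose steps, from aldolase to enolase, all moved down with nilotinib in hemin-treated cells (8 of 8 genes lower, against 31.8% of all genes). Without hemin 7 of 8 were lower, against 21.8% of all genes. ENO1, the main enolase, was at 2201, 2201 and 1984 CPM in mock DMSO, 641, 518 and 485 in mock nilotinib, 2172, 2904 and 1876 in hemin DMSO and 1015, 658 and 447 in hemin nilotinib. The nilotinib libraries did not reach the DMSO libraries, though those of hemin nilotinib were spread widely. ENO1 fell by 1.71 ± 0.24 (log2) with hemin and 1.96 ± 0.25 without (adjusted p = 1.55e-05 and 9.91e-06). The minor enolase ENO2, of neurons among other tissues, had 69.4, 79.1 and 57.4 CPM in mock DMSO, 32.1, 26.1 and 23.2 in mock nilotinib, 102, 98.5 and 69.5 in hemin DMSO and 36.8, 41.6 and 39.7 in hemin nilotinib, and it fell by 1.19 ± 0.17 and 1.34 ± 0.17 (adjusted p = 1.35e-05 and 1.04e-05). Summed ENO1 and ENO2 went from 414 ± 25.8 to 109 ± 16 FPKM without hemin and from 465 ± 108 to 140 ± 54.2 FPKM with it.

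PGK1, the first ATP-yielding enzyme of glycolysis, was at 388, 393 and 338 CPM in mock DMSO, 147, 139.7 and 145 in mock nilotinib, 466, 652 and 441 in hemin DMSO and 219.7, 264 and 177 in hemin nilotinib. PGAM1, the mutase that follows it, was at 213, 212 and 195 CPM in mock DMSO, 75.6, 77.5 and 78.6 in mock nilotinib, 309, 373 and 285 in hemin DMSO and 107, 95.5 and 78.1 in hemin nilotinib. For both genes each nilotinib library lay below every DMSO library. PGK1 fell by 1.24 ± 0.17 with hemin and 1.37 ± 0.17 without, and PGAM1 by 1.78 ± 0.14 and 1.42 ± 0.14 (log2; the largest adjusted p of these 4 was 9.36e-06). For PGAM1, 24.9% of its 150-base words also occur in PGAM4, AC012085.1 or AC078819.1. PGAM4 was at 0.95 CPM or less in every library, the levels of the other genes were not examined, and the effect on PGAM1 was not tested.

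TPI1, which interconverts the triose phosphates, had 349, 385 and 341 CPM in mock DMSO, 194, 174 and 167 in mock nilotinib, 521, 718 and 452 in hemin DMSO and 317, 246 and 182 in hemin nilotinib. It fell by 1.19 ± 0.19 with hemin and 1.01 ± 0.19 without (log2, adjusted p = 5.81e-05 and 0.000517), and its DMSO and nilotinib libraries did not overlap. GAPDH, which makes NADH and is often used as a reference gene, was lower under nilotinib with hemin (-0.81 ± 0.20, adjusted p = 0.00274), at a mean of 1107 against 1934 CPM, whereas without hemin the groups overlapped and the change was -0.17 (95% interval -0.61 to 0.26). Of the aldolases, ALDOC had 124, 131 and 110 CPM in mock DMSO, 27.3, 43.5 and 51.8 in mock nilotinib, 94.8, 227 and 127 in hemin DMSO and 64, 78.9 and 68.6 in hemin nilotinib. Hemin DMSO replicate 2 stood far above the other libraries, and ALDOC fell by 1.09 ± 0.26 with hemin and 1.57 ± 0.26 without (adjusted p = 0.00162 and 0.00015). ALDOA, at group means of 31.7 to 56.4 CPM, fell by 0.70 ± 0.20 and 0.69 ± 0.20 (adjusted p = 0.00645 and 0.0107). Its call with hemin was lost without hemin DMSO replicate 2 (-0.41, adjusted p = 0.0608) and its call without hemin was lost without mock nilotinib replicate 1 (-0.54, adjusted p = 0.0587). Of the exon length of ALDOA, 42.3% overlaps other genes on the same strand, so its level is uncertain and cannot be set against that of ALDOC.

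Pyruvate kinase yields pyruvate and ATP. Per length, its transcript came mainly from PKM in the DMSO groups and almost wholly from PKLR in the nilotinib groups. Its protein was not measured. PKM (chr15:72199029-72231822, minus strand) was at 614, 647 and 566 CPM in mock DMSO, 31.1, 28.8 and 32.5 in mock nilotinib, 571, 708 and 478 in hemin DMSO and 36.5, 54 and 35.8 in hemin nilotinib. PKLR (chr1:155289293-155301438, minus strand), which encodes the liver and red cell enzymes, was at 75.8, 119 and 179.6 CPM in mock DMSO, 833, 1082 and 1217 in mock nilotinib, 73.8, 118 and 95 in hemin DMSO and 804, 926 and 998 in hemin nilotinib. PKM was thus lower and PKLR higher in each of the 6 nilotinib libraries than in any DMSO library. PKM fell by 3.80 ± 0.19 (log2) with hemin and 4.30 ± 0.20 without (adjusted p = 2.22e-10 and 2.33e-10). PKLR rose 9.49-fold with hemin (3.25 ± 0.27, adjusted p = 4.52e-08) and 8.36-fold without (3.06 ± 0.27, adjusted p = 1.89e-07). Per length, PKLR made up 34.8 ± 10.7% of the summed PKM and PKLR FPKM in mock DMSO and 30.7 ± 4.54% in hemin DMSO, against 98.9 ± 0.224% in mock nilotinib and 98.3 ± 0.402% in hemin nilotinib. The sum itself rose, from 109 ± 14.1 to 330 ± 62.2 FPKM without hemin and from 99.4 ± 19.7 to 286 ± 27.9 FPKM with it. The shares and the size of this rise depend on the gene lengths behind FPKM, 8571 bases for PKM and 3168 for PKLR. Not divided by length, the summed level rose less, from 690, 766 and 746 to 864, 1111 and 1250 CPM without hemin. With hemin it went from 645, 826 and 573 to 840, 980 and 1034 CPM. PKLR overlaps HCN3 on the opposite strand (17.6% of its exon length), and no source used here states whether strand was used in counting. HCN3 was at 22.1 to 41.7 CPM in mock DMSO, 60.4 to 172 in mock nilotinib, 13.2 to 15.9 in hemin DMSO and 40.8 to 76 in hemin nilotinib, and its part in the PKLR counts was not tested.

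**Figure D3:**
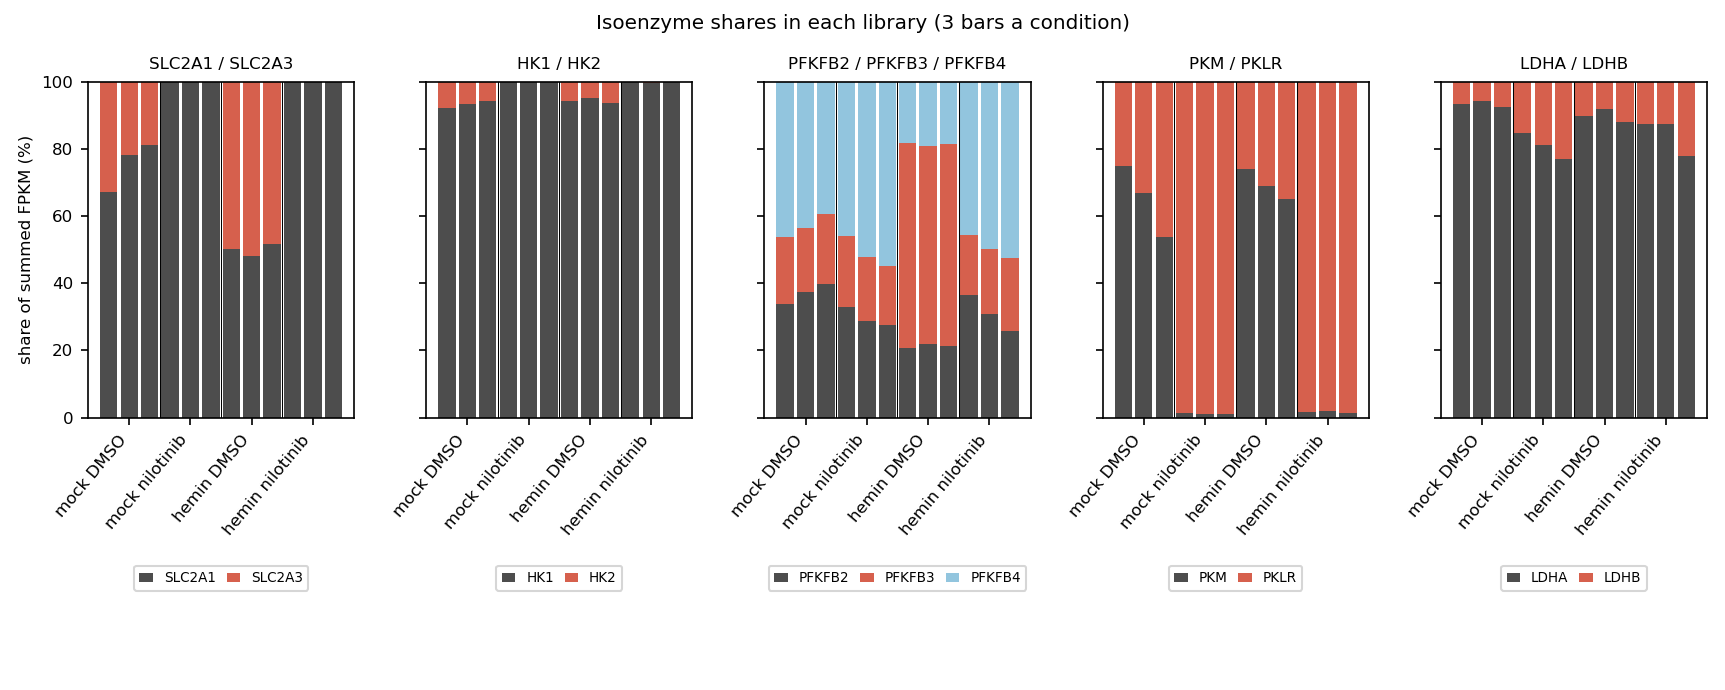
Share of each isoenzyme gene in the summed FPKM of its step, as stacked bars from 0 to 100%, 1 bar a library and 3 bars a group, for SLC2A1 and SLC2A3, HK1 and HK2, the PFKFB genes, PKM and PKLR, and LDHA and LDHB. PKLR fills over 97% of the bar in every nilotinib library, and PFKFB3 fills about 60% only in the hemin DMSO bars. The share of LDHB is uncertain, as 33.4% of its exon length overlaps AC010197.2 on the same strand.

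For PKLR and HK2, which moved in opposite directions, 1 of the 2 start windows of each is shown, picked because it holds short motifs known as sites of erythroid or MYC-type factors. The 250 bases before a RefSeq transcript start (GRCh38.p14) were searched on both strands for AGATAA, a form of the GATA1 site, and for CACGTG, the E-box, which is its own reverse complement and does not overlap the first motif. The PKLR window shown (chr1:155301439-155301688, minus strand) and the HK2 window shown (chr2:74834920-74835169, plus strand) hold no annotated exon base, and capitals mark the motifs. The other PKLR window (chr1:155300953-155301202) and the HK2 window at the earlier start (chr2:74833877-74834126) hold 0 matches, and the HK2 start shown lies inside the annotated gene.
PKLR: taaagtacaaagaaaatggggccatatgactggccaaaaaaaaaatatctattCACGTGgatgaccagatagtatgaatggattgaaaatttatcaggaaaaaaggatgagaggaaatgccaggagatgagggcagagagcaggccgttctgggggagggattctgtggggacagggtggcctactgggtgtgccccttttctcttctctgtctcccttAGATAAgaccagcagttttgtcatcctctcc
HK2: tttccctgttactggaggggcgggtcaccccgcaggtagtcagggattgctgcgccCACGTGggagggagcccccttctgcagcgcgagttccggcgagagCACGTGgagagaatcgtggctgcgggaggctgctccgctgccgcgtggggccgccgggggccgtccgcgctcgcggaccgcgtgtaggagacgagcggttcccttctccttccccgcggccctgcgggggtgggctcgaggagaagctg
In the PKLR window shown, AGATAA begins 31 bases and CACGTG 197 bases before the start. In the HK2 window shown, CACGTG begins 194 and 149 bases before it. AGATAA was present in 9.17% of all 35116 windows and in 5 of the 57 windows (8.77%) of the 30 genes found in the RefSeq table. CACGTG was present in 6.34% of all windows and in 7 of the 57 (12.3%). SLC2A3, PFKFB2 and SLC16A1 had no window.

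At the end of glycolysis, both lactate dehydrogenase genes fell with nilotinib. LDHA (chr11:18394388-18408425, plus strand), which favors lactate, was at 785, 874 and 678 CPM in mock DMSO, 126, 119 and 104 in mock nilotinib, 594, 1001 and 546 in hemin DMSO and 219, 211 and 91.1 in hemin nilotinib. No nilotinib library reached the DMSO libraries, and LDHA fell by 2.04 ± 0.28 (log2) with hemin and 2.75 ± 0.29 without (adjusted p = 1.08e-05 and 1.39e-06). LDHB, which favors pyruvate, had 27.4, 26.3 and 27.4 CPM in mock DMSO, 10.8, 13.3 and 15 in mock nilotinib, 32.3, 43.6 and 35.4 in hemin DMSO and 15.1, 14.7 and 12.4 in hemin nilotinib. It stood at 0.379 times its DMSO level with hemin and fell by 1.05 ± 0.16 (log2) without (adjusted p = 1.4e-06 and 5.84e-05), and its share of the summed FPKM of both was 6.8 ± 0.925% in mock DMSO, 19.1 ± 3.97% in mock nilotinib, 10.1 ± 1.8% in hemin DMSO and 15.8 ± 5.47% in hemin nilotinib. Of the exon length of LDHB, 33.4% overlaps, on the same strand, AC010197.2, which was at 13 counts or fewer in every library. How reads of the shared part were counted is not known, so the level of LDHB and its share beside LDHA are uncertain. Summed LDHA and LDHB went from 133 ± 15.9 to 22.8 ± 1.11 FPKM without hemin and from 129 ± 43.7 to 32.1 ± 12.2 FPKM with it.

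Lactate leaves the cell through the transporters MCT1, from SLC16A1, and MCT4, from SLC16A3. SLC16A1 was at 287, 309 and 299.7 CPM in mock DMSO, 116, 139 and 144 in mock nilotinib, 278, 198 and 243 in hemin DMSO and 153, 209 and 194 in hemin nilotinib. Without hemin the groups stood apart and nilotinib lowered it by 1.17 ± 0.15 (adjusted p = 1.53e-05). With hemin they overlapped, and the fall of 0.37 ± 0.15 (adjusted p = 0.0415) was lost in 11 of 22 alternative settings, among them leaving out hemin DMSO replicate 1 or 3, hemin nilotinib replicate 1 or 3, any mock DMSO library or mock nilotinib replicate 2, where it was -0.24 to -0.39. SLC16A3 was scarce, at 7.5, 7.46 and 5.9 CPM in mock DMSO, 4.97, 6.04 and 5.19 in mock nilotinib, 2.6, 2.74 and 2.36 in hemin DMSO and 3.82, 6.62 and 6.01 in hemin nilotinib. It was lowest in hemin DMSO, where hemin had lowered it by 1.44 ± 0.23 (log2, adjusted p = 7.65e-05), and nilotinib raised it by 1.09 ± 0.23 in hemin-treated cells (adjusted p = 0.000605).

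PDK1 and PDK3 encode kinases that switch off pyruvate dehydrogenase. PDK1 had 38.8, 37.2 and 34.1 CPM in mock DMSO, 32.9, 40.4 and 41.4 in mock nilotinib, 28.7, 32.1 and 28.3 in hemin DMSO and 52.1, 63.6 and 53.4 in hemin nilotinib. It stood highest in hemin nilotinib and rose with nilotinib by 0.93 ± 0.13 with hemin (adjusted p = 1.76e-05), with a change of 0.059 (95% interval -0.22 to 0.34) without hemin. PDK3 was barely present, at 1.49, 1.69 and 0.827 CPM in mock DMSO, 0.304, 0.583 and 0.346 in mock nilotinib, 1.1, 2.36 and 1.22 in hemin DMSO and 0.374, 0.796 and 0.21 in hemin nilotinib. PDK3 fell by 1.76 ± 0.48 with hemin and 1.70 ± 0.48 without (adjusted p = 0.00435 and 0.00964).

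**Figure D4:**
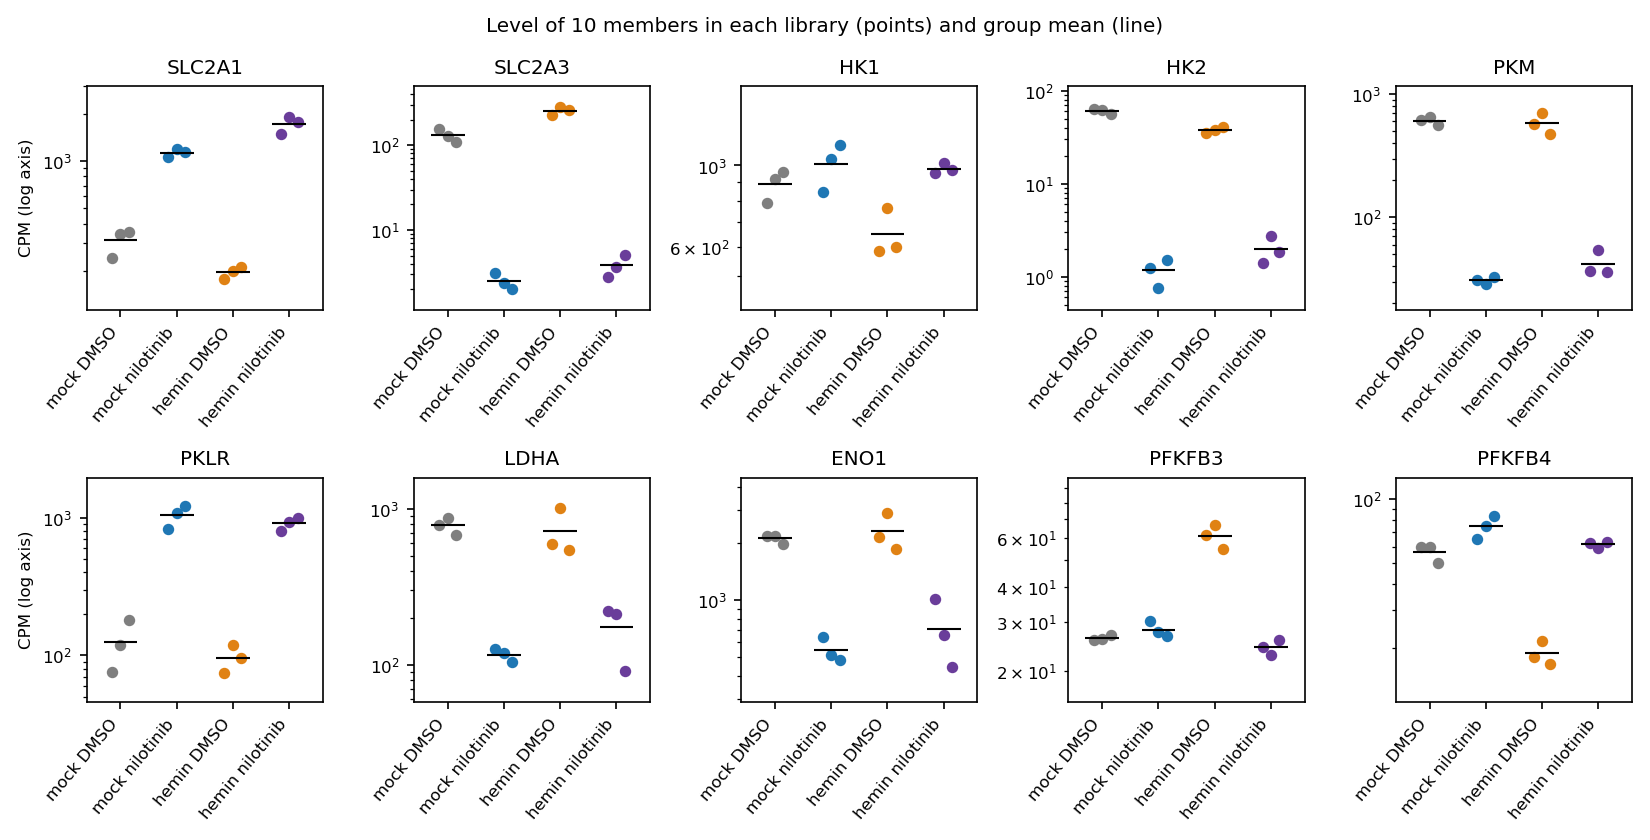
CPM (log axes, not the same range) of 10 genes in each library, as points by group with a line at the group mean. The 6 DMSO and the 6 nilotinib points do not overlap for SLC2A1, SLC2A3, HK2, PKM, PKLR, LDHA and ENO1, while hemin DMSO holds the 3 highest points of PFKFB3 and the 3 lowest of PFKFB4.

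In the pentose phosphate pathway, the enzymes moved less and not together. With hemin, nilotinib lowered 3 of 6 and raised 2 (31.8% and 32.4% of all genes), and without hemin it lowered 2 and raised 1 (21.8% and 20.7%), counts too small to set apart from those shares. PGD, the second NADPH-yielding enzyme of the oxidative branch, had group means of 468 CPM in mock DMSO, 288 in mock nilotinib, 545 in hemin DMSO and 297 in hemin nilotinib, and fell by 0.88 ± 0.14 and 0.70 ± 0.13 (adjusted p = 3.26e-05 and 0.000529). TKT, transketolase, fell by 0.80 ± 0.21 and 0.79 ± 0.21 (adjusted p = 0.00294 and 0.00583) to means of 300 and 306 CPM in the nilotinib groups. Its partner TALDO1, transaldolase, moved the other way, to 599 CPM from 425 without hemin and to 741 from 549 with it. TALDO1 rose by 0.43 ± 0.14 with hemin and 0.50 ± 0.14 without (adjusted p = 0.0145 and 0.0104). The first call was lost without hemin DMSO replicate 3 or hemin nilotinib replicate 2 (0.33 and 0.375), and the second without mock DMSO replicate 1 or mock nilotinib replicate 2 or 3 (0.39 to 0.44).

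PGLS, the lactonase of the oxidative branch, was at 52.9, 55.2 and 53.6 CPM in mock DMSO, 43.3, 49.5 and 49.3 in mock nilotinib, 43.8, 56.7 and 44.2 in hemin DMSO and 33.5, 35.5 and 34.9 in hemin nilotinib. The hemin nilotinib libraries were the lowest, 0.48 ± 0.13 (log2) below hemin DMSO (adjusted p = 0.00358), and without hemin the change under nilotinib was -0.18 (95% interval -0.45 to 0.081). RPE, the epimerase of ribulose 5-phosphate, had 24, 21.2 and 23.8 CPM in mock DMSO, 21.6, 22.1 and 16.4 in mock nilotinib, 7.66, 12.2 and 9.18 in hemin DMSO and 23.5, 17.9 and 15.1 in hemin nilotinib. It was lowest in hemin DMSO, 0.96 ± 0.20 (log2) below hemin nilotinib (adjusted p = 0.000539). Of its exon length, 23.8% overlaps KANSL1L on the opposite strand, whose level was 7.31 to 10.5 CPM in the DMSO libraries and 13.5 to 27.6 in those with nilotinib. RPIA, the isomerase that acts on the same substrate, did not pass the test, with changes of -0.12 (95% interval -0.74 to 0.50) with hemin and -0.39 (-1.01 to 0.22) without.

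Hemin in DMSO moved these genes in both directions, 8 of 33 up and 9 down, where 25.7% of all genes rose and 27.8% fell. The median of the 33 genes was -0.056 against -0.047 over all genes. The libraries did not overlap for 19 of the 33 genes (62.7% of all genes). With library totals alone for scaling, which put the median of all genes at -0.29, 3 rose and 14 fell. The comparison shares its hemin DMSO and mock DMSO libraries with the nilotinib comparisons. The 8 genes that rose were SLC2A3 (0.97 ± 0.19, adjusted p = 0.00042), PFKFB3, TALDO1 and, among the triose and lactate steps, TPI1 (0.65), GAPDH (0.68), PGK1 (0.48), PGAM1 (0.64 ± 0.14, adjusted p = 0.000986) and LDHB (0.46). The 9 genes that fell were SLC2A1 (-0.68 ± 0.16, adjusted p = 0.00217), HK1 (-0.46), HK2 (-0.69 ± 0.20, adjusted p = 0.00785), PFKM (-0.47), PFKP (-0.53), PFKFB2, PFKFB4, SLC16A3 and RPE (-1.25 ± 0.20, adjusted p = 7.44e-05). None of the 6 hexose-step genes rose and none of the 8 triose-step genes fell, counts too small to set apart from the shares of all genes given above. ENO1, PKM and LDHA, which fell far under nilotinib, changed by 0.12 (95% interval -0.38 to 0.63), -0.056 (-0.42 to 0.30) and -0.13 (-0.70 to 0.45) under hemin in DMSO.

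Several of these hemin calls rested on single libraries. Without hemin DMSO replicate 2, those of TPI1, GAPDH, PGK1, LDHB and TALDO1 were lost (0.245 to 0.456), and 3 genes rose. Mock DMSO replicate 1 also decided these 5 calls (0.245 to 0.567), again with 3 genes higher without it, while mock DMSO replicate 3 decided those of TPI1, PGK1, LDHB and TALDO1, leaving 4 higher. The call of HK1 was lost without hemin DMSO replicate 1 or 3 or mock DMSO replicate 2 or 3 (-0.373 to -0.447). PFKL was called lower without hemin DMSO replicate 2 (-0.65), as was PKLR without mock DMSO replicate 1 (-0.71). Libraries outside the comparison enter through the shared spread and scaling: TALDO1 was lost without mock nilotinib or hemin nilotinib replicate 2 or 3, LDHB without either replicate 2, and PGK1 without mock nilotinib replicate 2 or 3, with 5 genes higher without mock nilotinib replicate 2. LDHB and TALDO1 were also lost without mock DMSO replicate 2. ENO2 was gained without hemin DMSO replicate 3, mock DMSO replicate 2 or hemin nilotinib replicate 1 (0.376 to 0.564). PDK1 was gained as lower without hemin DMSO replicate 2, mock DMSO replicate 3 or any nilotinib library (-0.322 to -0.401), and SLC16A1 without hemin DMSO replicate 1 or hemin nilotinib replicate 1 or 3 (-0.335 to -0.431).

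**Figure D5:**
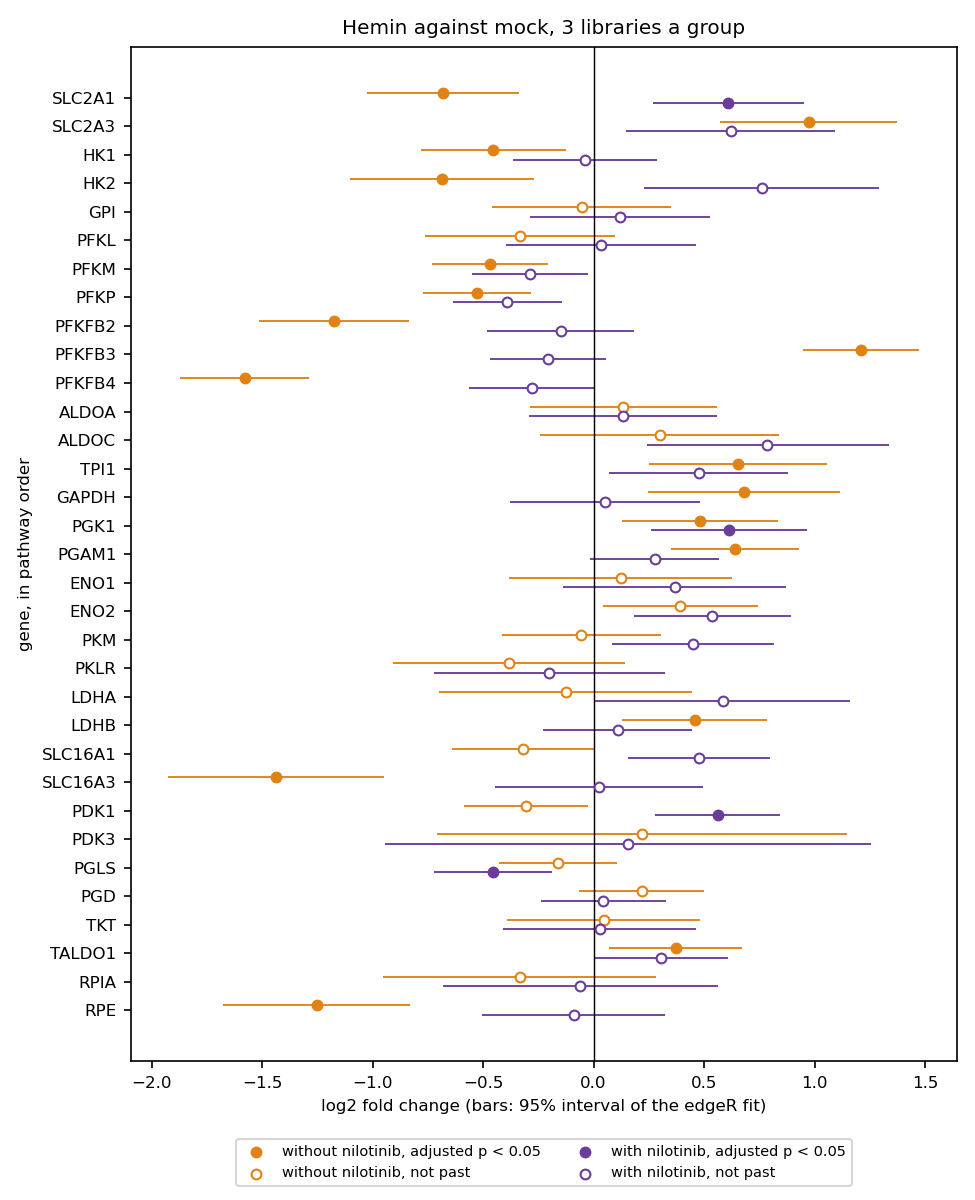
Log2 fold change of hemin against mock for the 33 genes in pathway order, without nilotinib (orange) and with nilotinib (purple), 3 libraries a group, with 95% intervals of the edgeR fit; filled points passed adjusted p under 0.05. The orange points of PFKFB3 (1.21) and PFKFB4 (-1.58) lie at the 2 ends, and 29 of the 33 purple points are open.

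In nilotinib-treated cells, hemin raised 3 of the 33 genes and lowered 1, where 3.52% of all genes rose and 2.28% fell, and the libraries did not overlap for 13 (23.3% of all genes). SLC2A1 rose by 0.61 ± 0.16 (adjusted p = 0.038), PGK1 by 0.61 ± 0.17 (adjusted p = 0.0418) and PDK1 by 0.56 ± 0.13 (adjusted p = 0.024), and PGLS fell by 0.45 ± 0.13 (adjusted p = 0.0451). SLC2A1 is the one of these 4 called in the opposite direction under hemin in DMSO. Same-numbered libraries of this pair of groups were weakly correlated in their deviations from group means (0.199 to 0.263), which the calls above do not use. With the replicate block 5 genes rose and 2 fell. ENO2 (0.55) and ALDOC (0.81) were added to those higher and PFKP (-0.39) to those lower. All 4 calls depended on single libraries. Without hemin nilotinib replicate 2 or mock nilotinib replicate 1, 2 or 3 no gene was called higher, and without hemin nilotinib replicate 1 there were 8. The fall of PGLS was also lost without hemin nilotinib replicate 3, hemin DMSO replicate 3 or any mock DMSO library (-0.444 to -0.466). Without any 1 mock DMSO library PGK1 was lost, and SLC2A1 was lost without mock DMSO replicate 2 or hemin nilotinib replicate 3, whereas LDHA was gained without the latter (0.885). Without hemin DMSO replicate 2, ALDOC and SLC16A1 were added to the higher genes and PFKP to the lower.

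The effect of nilotinib differed between hemin-treated and mock cells for 9 of the 33 genes, 8 with a higher log2 change with hemin (17.1% of all genes) and 1 with a lower (13.0%). The rise of SLC2A1 was larger with hemin, by 1.29 ± 0.23 (adjusted p = 0.000709), and the fall of HK2 was smaller, with a difference of 1.45 ± 0.32 (adjusted p = 0.00327). All 3 PFKFB genes differed, PFKFB4 by 1.30 ± 0.19, PFKFB2 by 1.03 ± 0.22 and PFKFB3 by -1.42 ± 0.17 (adjusted p = 0.000157, 0.00304 and 3.87e-05). The remaining genes were SLC16A3, SLC16A1, PDK1 and RPE, with differences of 1.46, 0.79, 0.87 and 1.16. For PKLR, PKM and SLC2A3 the differences were 0.18 (95% interval -0.56 to 0.93), 0.51 (-0.008 to 1.02) and -0.35 (-0.97 to 0.27). None of the 8 triose-step genes passed this test with all libraries (adjusted p of 0.11 for GAPDH to 1 for ALDOA, edgeR). GAPDH was called lower without mock nilotinib replicate 1 (-0.81) and ALDOC higher without hemin DMSO replicate 2 (0.91), as were PFKL (0.68) and PKM (0.66), and LDHA was called higher without hemin nilotinib replicate 3 (1.06).

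Of 45 further genes of glycolysis, gluconeogenesis and the pentose phosphate pathway, 33 were tested, of which nilotinib raised 14 and lowered 7 with hemin, where 32.4% of all genes rose and 31.8% fell, and raised 10 and lowered 6 without, where 20.7% rose and 21.8% fell. Their median log2 changes were 0.14 and 0.31, against 0.022 and 0.004 over all genes. The strongest rise in both was of TXNIP, a brake on glucose uptake that is induced by sugar phosphates, at 45, 40.2 and 21.4 CPM in mock DMSO, 1236, 1525 and 1633 in mock nilotinib, 246, 111 and 39.5 in hemin DMSO and 1106, 1223 and 988 in hemin nilotinib. Its levels in hemin DMSO were spread widely but stayed below those of both nilotinib groups, and it rose by 3.07 ± 0.45 with hemin and 5.37 ± 0.50 without (adjusted p = 1.96e-05 and 3.89e-07). Among genes with a mean of at least 100 counts the strongest fall was of G6PC3, a glucose 6-phosphatase, by 1.21 ± 0.29 and 1.62 ± 0.30. BPGM, which makes the 2,3-bisphosphoglycerate of red cells and was picked after its values were seen, rose by 2.20 ± 0.19 and 2.44 ± 0.19 (adjusted p = 5.37e-08 and 4.25e-08), from 15.5, 17.1 and 17.9 CPM in mock DMSO to 70.6, 104 and 98.5 in mock nilotinib and from 16, 16.7 and 17.1 in hemin DMSO to 93, 80.7 and 55 in hemin nilotinib.

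Of 33 genes of pyruvate entry and the citrate cycle, nilotinib lowered 21 and raised 4 with hemin (31.8% and 32.4% of all genes) and lowered 19 and raised 3 without (21.8% and 20.7%). Their medians were -0.55 and -0.50, against 0.022 and 0.004 over all genes, and 8 and 11 of them did not pass the test. GOT1, of the malate-aspartate shuttle, fell most without hemin (-2.51 ± 0.14, adjusted p = 1.76e-09). ME1, the malic enzyme that supplies NADPH, fell most with hemin, at 308, 294 and 224 CPM in hemin DMSO, 21.9, 40.6 and 39.8 in hemin nilotinib, 20.3, 19.1 and 22.3 in mock DMSO and 11.7, 14.3 and 16.8 in mock nilotinib. Hemin DMSO stood far above the rest, and nilotinib lowered ME1 by 3.01 ± 0.22 with hemin and by 0.53 ± 0.21 without (adjusted p = 9.25e-09 and 0.0497). Of 20 hypoxia-response genes outside glycolysis, 12 were lower and 4 higher under nilotinib both with hemin (31.8% and 32.4% of all genes) and without (21.8% and 20.7%), with medians of -0.97 and -0.63. Among those with a mean of at least 100 counts, DDIT4, a stress-induced inhibitor of mTORC1, fell most (by 1.87 ± 0.57 and 3.02 ± 0.59), KDM4B, a histone demethylase, rose most with hemin (0.97 ± 0.14) and NDRG1 rose most without (2.01 ± 0.30).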

How the data were processed

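RNA was profiled by 150 bp paired-end sequencing in 12 K562 libraries, labelled as biological replicates. The raw counts per gene were deposited by the authors, and the aligner, counter and strand setting are not given in the sources used here. The FPKM values were computed by the authors per gene length and, as the values themselves show, per median-of-ratios size factor rather than library total. The submitters' processing notes name GRCh38.p12, DESeq and DESeq2. A table of the authors' group mean FPKM was not used.

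The counts were fitted with edgeR 4.0.16 in R 4.3.3 (TMM scaling, filterByExpr with a minimum count of 10, quasi-likelihood test, 1 mean for each of the 4 groups, all 12 libraries). P-values were adjusted by Benjamini-Hochberg over 20821 genes, SE is the absolute log2 fold change over the root of F, and the script was tested on simulated data. Between genes, levels were compared as FPKM. An exact permutation test of 3 against 3 cannot go below p = 0.1 and was not used, and the p-values given are those of the edgeR fit across all genes. The members and lists were chosen with earlier results of these data known. All 33 members are named, with values in every library for those past the threshold with an absolute log2 fold change of 1 or more under nilotinib or under hemin in DMSO, or past it under hemin with nilotinib. Other lists give up to 4 genes, the largest rise and fall with and without hemin at a mean of at least 100 counts, not all of them printed.

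Replicate numbers were checked for pairing by correlating deviations from group means: only for hemin with nilotinib were all 3 correlations over 0.1 (0.263, 0.199 and 0.254), against -0.007 to 0.235 elsewhere. Alternatives were DESeq2 1.42.0, other scalings and filters, limma-trend 3.58.1 on log2(FPKM + 1) and log2(FPKM + 0.1), a fit on only the groups compared, a block for the replicate number, and each library left out. Totals of 33457078 to 50506990 counts per library limit the precision of genes at a few CPM, and counting error is the smaller part of the spread between libraries. One marker gene is not reported here.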

Additional observations from a re-analysis of the deposited data

Results flagged for a closer look

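The effect of nilotinib differed between hemin-treated and mock cells for 9 genes by the interaction test of edgeR, given as the log2 change with hemin minus that without. The difference was 1.293 for SLC2A1 (adjusted p = 0.000709), 1.447 for HK2 (0.00327), 1.027 for PFKFB2 (0.00304), -1.418 for PFKFB3 (3.87e-05), 1.3 for PFKFB4 (0.000157), 0.794 for SLC16A1 (0.0112), 1.461 for SLC16A3 (0.00311), 0.866 for PDK1 (0.00295) and 1.163 for RPE (0.00552). Hemin, time in culture and hours of nilotinib cannot be told apart in these values.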

How the results depend on the processing

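Over 22 alternative settings, 12 of which left out 1 library, no call reversed. Calls kept in every setting that tested the gene were 28 of 31 for nilotinib with hemin and 18 of 21 without hemin. They were 11 of 17 for hemin in DMSO, 0 of 4 for hemin with nilotinib and 9 of 9 for the interaction. PDK3 was not tested with the filter of at least 10 counts in every library, and the interaction was tested in 21 settings. For hemin in DMSO, library totals alone gave 3 higher and 14 lower genes, with 3881 higher and 7578 lower of all genes against 5360 and 5796 with TMM. For hemin with nilotinib, DESeq2 gave 2 lower genes and library totals alone 2. The filter of at least 1 count gave 10 higher and 0 lower, limma-trend on log2(FPKM + 1) 0 and 2, limma-trend on log2(FPKM + 0.1) 0 and 0, and the libraries of the comparison alone 0 and 0. At an unadjusted p under 0.05 these 4 settings gave 12 higher and 2 lower, 6 and 4, 9 and 3, and 9 and 3 genes, against 12 and 3 with edgeR as reported. The replicate block gave 5 higher and 2 lower. Same-numbered libraries were weakly correlated in this comparison and mostly more weakly in the others. For the interaction, upper-quartile scaling and limma-trend on log2(FPKM + 1) each gave 2 lower genes. Scaling also moved the split of all genes in the interaction from 3558 higher and 2713 lower to 4799 and 1752 with library totals alone and to 2914 and 3380 with upper-quartile scaling. With 1 library left out, the higher genes ranged from 2 to 5 for nilotinib without hemin, from 3 to 9 for hemin in DMSO and from 0 to 8 for hemin with nilotinib, and the lower genes from 0 to 2 for hemin with nilotinib and from 1 to 2 for the interaction. With library totals alone the median log2 change of all genes was 0.199 for nilotinib with hemin, -0.286 for hemin in DMSO and 0.272 for the interaction, and with upper-quartile scaling it was 0.113 for nilotinib without hemin and -0.057 for the interaction. The cause of these changes was not tested.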
